A study of Rattus norvegicus with 4 samples.

Results

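The Mif cytokine family and its receptor genes were followed here as 4 genes in the left ventricle: Mif and Ddt, which encode the secreted proteins, and Cd74 and Cd44, which encode the chains of their cell surface receptor. Members were taken by gene symbol, and each symbol stood at 1 locus that held no other gene, so the members are 4 of 22861 loci and 4 of 16581 gene symbols. They were picked because Mif was lower with miR-21 inhibition. Levels, folds and the deposited p and q of the members in this comparison are therefore a description and no test. The rats were male Sprague Dawley animals, and every one had 5/6 nephrectomy, a surgical loss of most kidney mass that models chronic kidney disease, at 10 weeks of age. The anti-miR-21 group received a locked nucleic acid oligonucleotide against miR-21-5p, and the anti-scr group received a scrambled one. Each was given into a vein at 1 mg/kg on 3 days in week 1 and again in week 4, on 0.4% Dyets chow, and the ventricle was collected in week 7. There were 2 libraries a group, each from pooled RNA of 2 to 3 rats, and no group without nephrectomy was part of the comparison.

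MIF is a small cytokine that many cells, heart muscle cells among them, keep stored and release under stress. DDT is its closest relative in sequence and shares its receptor. CD74 binds the cytokine at the cell surface and CD44 carries the signal inward, towards the ERK kinases, PI3K and AKT, while the chemokine receptors CXCR2, CXCR4 and ACKR3 serve MIF as further receptors. CD74 is also the invariant chain that guides MHC class II molecules through the cell, and CD44 is the main receptor for the matrix sugar hyaluronan. In the heart, MIF and DDT are known for activating the energy sensor AMPK during ischaemia.

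The inhibited RNA is shown first because it sets the comparison. The capitals mark its seed, bases 2 to 8, which pairs with target transcripts; the sequence and position are from RefSeq on the build GRCr8, chr10:71902653-71902674 on the - strand. Target sites in the members' transcripts were not analysed here.
rno-miR-21-5p: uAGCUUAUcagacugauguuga

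Promoters of the members are shown because Mif and Ddt lie in the same stretch of chromosome 20 and were both lower in value, while the receptor genes lie elsewhere. Each runs from 250 bases before to 50 bases after 1 start site per gene in a table of promoters from RefSeq (GRCr8), and all 4 members matched by symbol. That site is not the outer edge of the RefSeq gene: it lies 23219 bases inside it for Mif, 625 for Ddt, 135 for Cd74 and 352 for Cd44. Capitals mark matches, on either strand, to 5 short motifs: TGACGTCA (the cyclic AMP response element), GGGCGG (the GC box), CCAAT (the box bound by NF-Y), ACGTG (the core bound by hypoxia-inducible factors) and TGANTCA (the AP-1 site). A match on the reverse strand is read as its reverse complement.
Mif promoter, chr20:12790107-12790406, + strand: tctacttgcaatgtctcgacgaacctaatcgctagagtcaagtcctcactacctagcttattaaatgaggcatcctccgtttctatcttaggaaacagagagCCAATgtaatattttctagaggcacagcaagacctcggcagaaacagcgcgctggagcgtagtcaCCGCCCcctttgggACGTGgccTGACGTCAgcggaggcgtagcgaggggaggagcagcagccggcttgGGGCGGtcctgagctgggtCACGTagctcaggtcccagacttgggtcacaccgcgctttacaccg
Ddt promoter, chr20:12883400-12883699, + strand: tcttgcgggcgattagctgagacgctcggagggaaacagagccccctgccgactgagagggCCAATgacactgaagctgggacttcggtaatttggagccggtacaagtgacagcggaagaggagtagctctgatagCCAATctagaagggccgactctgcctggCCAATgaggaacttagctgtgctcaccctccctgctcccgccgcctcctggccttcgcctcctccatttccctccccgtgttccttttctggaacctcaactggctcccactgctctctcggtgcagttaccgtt
Cd74 promoter, chr18:56526956-56527255, + strand: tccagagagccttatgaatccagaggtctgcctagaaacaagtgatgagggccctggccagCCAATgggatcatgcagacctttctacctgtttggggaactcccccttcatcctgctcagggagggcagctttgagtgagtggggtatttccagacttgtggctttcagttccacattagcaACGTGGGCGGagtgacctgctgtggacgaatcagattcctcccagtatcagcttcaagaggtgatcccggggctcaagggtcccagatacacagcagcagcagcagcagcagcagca
Cd44 promoter, chr3:109699375-109699674, - strand: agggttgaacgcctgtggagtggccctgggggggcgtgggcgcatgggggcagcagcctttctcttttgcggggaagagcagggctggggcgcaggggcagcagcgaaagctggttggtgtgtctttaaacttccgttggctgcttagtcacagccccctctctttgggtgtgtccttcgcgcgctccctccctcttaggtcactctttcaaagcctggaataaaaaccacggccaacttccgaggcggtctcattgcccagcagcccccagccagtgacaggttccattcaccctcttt

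The Mif window held the full TGACGTCA, starting 61 bases before the start site, a motif present in 1.83% of 33469 windows of the same length. It also held GGGCGG in 2 places (33.1% of windows have it), ACGTG in 2 places (19.3%) and CCAAT once (37.5%). The Ddt window held CCAAT in 3 places, 189, 113 and 85 bases before the start site, and none of the other motifs. In the Cd74 window CCAAT stood once, and ACGTG and GGGCGG stood once each and shared a base. The Cd44 window held none of these letters, and TGANTCA, in 7.33% of windows, was in none of the 4. GC content was 56.0% for Mif, 58.7% for Ddt, 55.0% for Cd74 and 60.3% for Cd44, against a median of 51.7% over all windows. CpG pairs numbered 20, 15, 4 and 13 in the same gene order, against a median of 7. A match is a string of letters and not a binding site.

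The anti-miR-21 libraries held 54952098 and 47826514 reads and the anti-scr libraries 48549754 and 53501488, with 94.0% to 94.4% mapped. Summed FPKM differed through 1 unnamed locus of 27 bases, listed at 9377910 FPKM with anti-miR-21 and 1781480 FPKM with anti-scr. Without it the sum was 779844 FPKM with anti-miR-21 and 840582 FPKM with anti-scr, and the 10 most abundant loci held 14.7% with anti-miR-21 and 16.8% with anti-scr. Values are FPKM, fragments scaled by transcript length and library size, and the authors' deposited table gives 1 value per gene and group, so the spread between pools could not be seen for any gene. Folds are given on the log2 scale, the anti-miR-21 value over that of anti-scr. Over the 9960 named loci whose mean level reached 1 FPKM, the median log2 fold was 0.01, 48.1% were lower in value, and the central 95% of folds ran from -0.77 to 0.60. Heart muscle markers were abundant: Myl2, the ventricular myosin light chain gene, stood at 30217 FPKM with anti-miR-21 and 39354 with anti-scr.

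Mif, the founding cytokine gene, had 6.49 FPKM with anti-miR-21 and 18.3 FPKM with anti-scr. The anti-miR-21 value was 64.6% below that of anti-scr, a log2 fold of -1.50. The authors' deposited table gives it p = 0.00015 and q = 0.0261. Among the 3462 other named loci whose mean level lay within 2-fold of that of Mif, 0 had a lower fold, and the central 95% of their folds ran from -0.70 to 0.49.

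Ddt, which encodes D-dopachrome tautomerase, the second cytokine of the family, had 61.2 FPKM with anti-miR-21 and 87.5 FPKM with anti-scr. The log2 fold was -0.51, or 0.700 times the anti-scr value, with p = 0.0417 and q = 0.511 in the authors' deposited table. Of 1576 named loci at a like level, 4.38% had a lower fold. Both cytokine genes thus had their lower value with anti-miR-21, but the sizes differed: Ddt stood at 9.44 times the level of Mif with anti-miR-21 and at 4.78 times with anti-scr.

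Cd74, the binding chain of the receptor, was the most abundant member, at 569 FPKM with anti-miR-21 and 661 FPKM with anti-scr. Its mean level exceeded that of 98.0% of named loci. The log2 fold was -0.22, and 33.7% of 270 loci at a like level had a lower one; the authors' deposited table gives q = 0.830.

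Cd44, the signalling chain, had 12.3 FPKM with anti-miR-21 and 8.24 FPKM with anti-scr. It was the 1 member with a higher value in the anti-miR-21 group, with a log2 fold of 0.58, p = 0.0064 and q = 0.231 in the authors' deposited table. Of 3520 loci at a like level, 98.4% had a lower fold. The ratio of Cd74 to Cd44, per length, was 46.2 with anti-miR-21 and 80.2 with anti-scr.

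**Figure D1:**
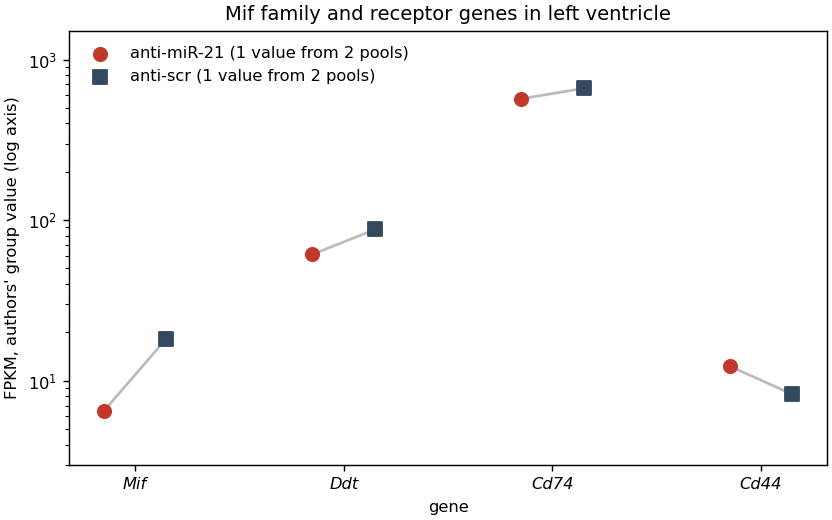
FPKM of Mif, Ddt, Cd74 and Cd44 on a log axis, 1 authors' value per group from 2 pooled libraries, anti-miR-21 as circles and anti-scr as squares; no error can be drawn. Mif, Ddt and Cd74 stand lower with anti-miR-21 (6.49, 61.2 and 569 FPKM) than with anti-scr (18.3, 87.5 and 661 FPKM), and Cd44 stands higher (12.3 against 8.24 FPKM).

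The order of levels was Cd74, Ddt, Cd44, Mif with anti-miR-21 and Cd74, Ddt, Mif, Cd44 with anti-scr. Cd74 stood above Ddt, and Ddt above the other pair, in either group. Whether Mif and Cd44 differ from each other beyond the spread between pools cannot be said, since no value per pool was given. At a deposited q under 0.05, 1 of the 4 members was called, Mif, beside 0.815% of 12876 tested loci. Split by direction, 81 tested loci (0.629%) were called lower and 24 (0.186%) higher. At an unadjusted p under 0.05 it was 3 of 4, beside 9.3% of tested loci. Since the members were picked on this comparison, nothing is read from these counts.

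**Figure D2:**
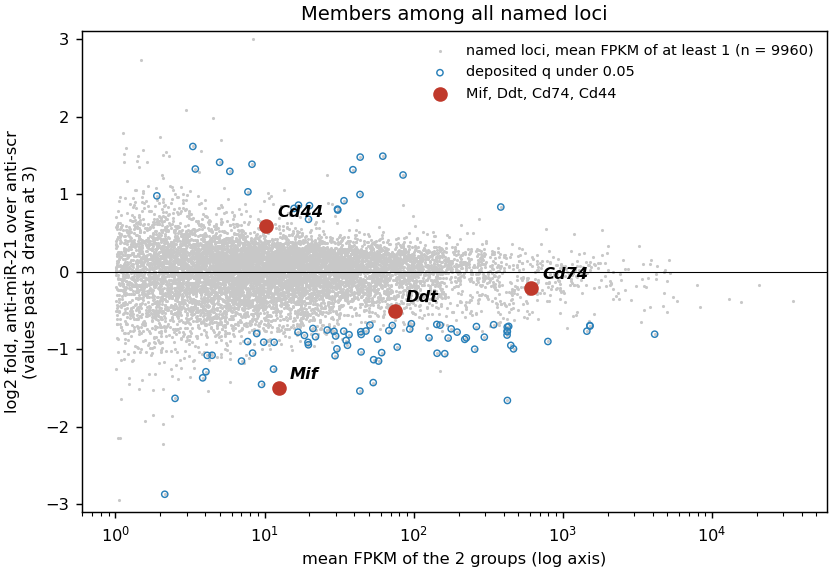
Log2 fold, anti-miR-21 value over anti-scr value, against the mean FPKM of the 2 groups (log axis) for 9960 named loci; open circles mark a deposited q under 0.05 and filled points the 4 members. Mif lies at the lower edge for its level (-1.50), Ddt (-0.51) and Cd74 (-0.22) lie below 0, and Cd44 lies above (0.58).

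What was counted as Mif bears on its value. On rn5, the build of the deposited table, the Mif locus ran over 11885 bases on chromosome 20, from 15882712 to 15894596. In RefSeq on GRCr8 the gene spans 24085 bases with 15 transcript models, but the start site of the promoter shown above lies only 866 bases from the gene's end, so short and long models share 1 symbol. FPKM divides by transcript length, and which lengths entered the deposited value is not stated in the sources used here. RefSeq also names 9 Mif pseudogenes and 4 Mif-like coding genes in the rat, and no locus with those names was analysed here. Whether reads from such copies were counted as Mif was not tested. Ddt (chromosome 20, 16016760 to 16021656), Cd74 (chromosome 18, 55305872 to 55315246) and Cd44 (chromosome 3, 99338246 to 99426207) spanned 4897, 9375 and 87962 bases on rn5, close to their RefSeq lengths for Cd74 (9336) and Cd44 (88953) and longer for Ddt (3097).

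Mif and Ddt sit 131 kb apart on rn5, measured between the middles of their loci, and the genes around them were lower in value too. Within 500 kb of Mif, 13 of 13 named loci whose mean reached 1 FPKM were lower with anti-miR-21. Ddt, itself a member, is 1 of these 13. Their median log2 fold was -0.42, with a range from -0.79 to -0.04. None was as low as Mif. Of these 13, 1 was called lower at a q under 0.05 in the authors' deposited table, beside 0.629% of all tested loci. It was Chchd10, which encodes a mitochondrial protein of the cristae junctions. Its values were 320 FPKM with anti-miR-21 and 527 FPKM with anti-scr (log2 fold -0.72, q = 0.0261). The other near genes on that side were Mmp11, a matrix metalloproteinase gene (1.97 FPKM with anti-miR-21 and 3.40 with anti-scr, -0.79, q = 0.382), and Smarcb1, a subunit gene of the SWI/SNF chromatin remodeller (11.8 FPKM with anti-miR-21 and 15.8 with anti-scr, -0.42, q = 0.603). On the side towards Ddt stood the glutathione transferase genes Gstt2 (-0.08), Gstt1 (-0.39) and Gstt3 (-0.49), with q in the authors' deposited table from 0.746 to 0.971.

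**Figure D3:**
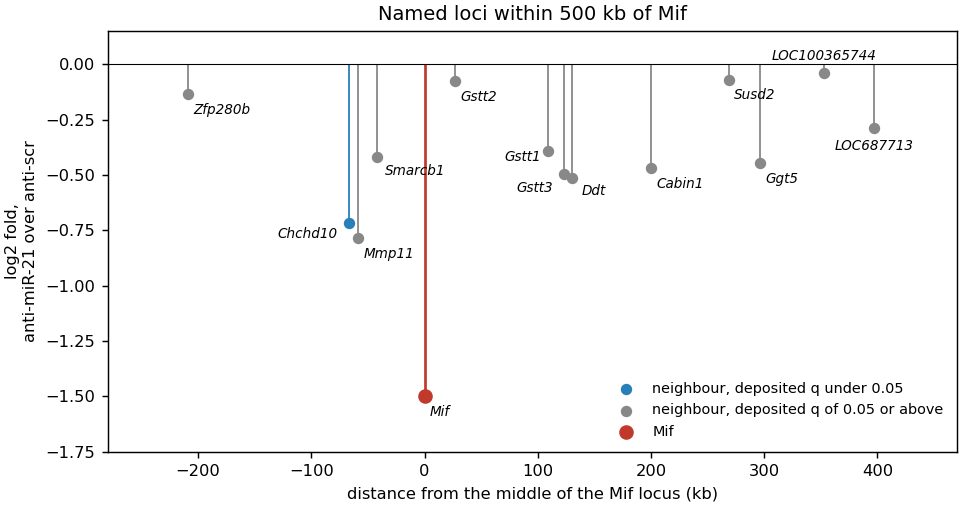
Log2 fold, anti-miR-21 value over anti-scr value, of the 13 named loci within 500 kb of Mif, against their distance in kb from the middle of the Mif locus. The member Ddt is among the 13. Every point lies below 0, Mif lowest at -1.50, and Chchd10 is the 1 neighbour with a deposited q under 0.05.

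Around Cd74 and Cd44 the neighbours depended on the window. Of 13 named loci within 500 kb of Cd74, 7 were lower in value with a median of -0.06, with Csf1r counted at 2 loci, both lower. The 2 named loci within 500 kb of Cd44, the pyruvate dehydrogenase gene Pdhx (0.18) and the methionine salvage gene Apip (0.28), were higher. By the q of the authors' deposited table none of these 15 passed. Within 200 kb of Cd74, 4 of 5 were lower (median -0.22), and within 1000 kb 11 of 22 (median 0.01); within 1000 kb of Cd44, 3 of 7 were lower. Around Mif, 8 of 8 were lower within 200 kb and 17 of 21 within 1000 kb, with the member Ddt counted in each window. The difference between the members' surroundings was not tested. The number of neighbours moved with the fold over the whole table. Named loci with 0 to 4 neighbours within 500 kb had a median of 0.14 and 28.3% were lower (3179 loci). With 5 to 9 the median was 0.04 and 44.0% were lower (3014 loci). With 10 to 16 the median was -0.10 and 62.8% were lower (2085 loci). With 17 or more it was -0.25 and 78.0% were lower (1599 loci). Mif had 13 neighbours, Ddt 14, Cd74 13 and Cd44 2. The part of gene density in the members' folds was not tested.

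The genes whose pattern was most like that of Mif were found among single-gene loci with a mean level within 2-fold of its own, by the closeness of the log2 fold over the 2 group values. They were Timm13, a mitochondrial import chaperone gene (-1.46), Fitm1, a lipid droplet gene (-1.26), the surface glycoprotein gene Cd99 (-1.17), Ncln, which encodes nicalin of the endoplasmic reticulum (-1.15), and Fxyd3, a regulator gene of the sodium pump (-1.11). With 2 values per gene, likeness is no more than a like fold. Timm13, Fitm1 and Ncln had q of 0.0211, 0.0131 and 0.0261 in the authors' deposited table, and Cd99 and Fxyd3 were not called (0.207 and 0.648).

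Beyond the members, 8 lists of genes that work with Mif, Cd74 or Cd44 were drawn up, with 63 entries, of which 49 were tested by the authors. At a q under 0.05 in the authors' deposited table, 2 of them rose, Spp1 and Vcan, and 1 fell, Map2k2; 14 had an unadjusted p under 0.05. Over all tested loci 0.186% were called higher, 0.629% were called lower and 9.3% had such a p. Of the 48 whose mean reached 1 FPKM, 33 were higher and 15 lower in value, with a median log2 fold of 0.17 against 0.01 over all named loci. The lowest fold of these 48 was -0.84. The Mif fold lay below it, but Mif was picked because its value was lower, so nothing is read from that.

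For the chemokine receptors and binding partners of MIF that reached 1 FPKM, log2 folds ran from -0.03 to 0.50. Cxcr4 had 10.6 FPKM with anti-miR-21 and 8.87 with anti-scr (log2 fold 0.26). Ackr3, listed under its older symbol Cxcr7, had 46.4 FPKM with anti-miR-21 and 46.6 with anti-scr (-0.01), and Cxcr2, the neutrophil receptor, lay under 1 FPKM in either group. For the 2 tested receptors the authors' deposited table gives q of 0.810 and 0.996, so neither was called. Of 6 partner genes analysed, 0 were called and the median was 0.08. The most abundant were the antioxidant genes Prdx1 (851 FPKM with anti-miR-21 and 791 with anti-scr, 0.11) and Txn1 (691 FPKM with anti-miR-21 and 663 with anti-scr, 0.06). Abca1, a lipid transporter gene linked to MIF export, had 7.33 FPKM with anti-miR-21 and 5.17 with anti-scr (0.50), with p = 0.0167 and q = 0.363 in the authors' deposited table. For Cops5, whose protein JAB1 binds MIF inside the cell, the values were 118 FPKM with anti-miR-21 and 121 with anti-scr (-0.03).

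Among 15 signalling genes analysed, 13 were tested, and the median was 0.17. By the q of the authors' deposited table, 1 was called lower and none higher, beside 0.629% and 0.186% of all tested loci. Map2k2, which encodes the ERK kinase MEK2, fell to 15.7 FPKM with anti-miR-21, against 28.2 FPKM with anti-scr (log2 fold -0.84; the authors' deposited table gives q = 0.0318). Its relative Map2k1 had 55.5 FPKM with anti-miR-21 and 49.4 with anti-scr (0.17). Akt1, a kinase gene of the survival pathway, had 41.0 FPKM with anti-miR-21 and 59.0 with anti-scr (-0.52, q = 0.232), and the prostaglandin synthase gene Ptgs2 had 1.98 FPKM with anti-miR-21 and 1.02 with anti-scr (0.96, q = 0.184); neither q passed in the authors' deposited table. Prkaa2, the AMPK catalytic subunit gene of heart muscle, had 59.2 FPKM with anti-miR-21 and 52.4 with anti-scr (0.18).

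Of 5 regulators of Mif transcription, none was called by the authors' deposited table; 4 had the higher value with anti-miR-21, and the median was 0.24. Hif1a, the hypoxia factor gene, had 19.8 FPKM with anti-miR-21 and 15.1 with anti-scr (0.39; q = 0.559, from the authors' deposited table), and Nr3c1, the glucocorticoid receptor gene, 17.5 FPKM with anti-miR-21 and 14.6 with anti-scr (0.26). The gene of CREB, which binds the cyclic AMP response element, Creb1, had 2.17 FPKM with anti-miR-21 and 2.03 with anti-scr (0.10). Folds of the 5 regulators ran from -0.02 to 0.39, and their part in the Mif fold was not tested.

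**Figure D4:**
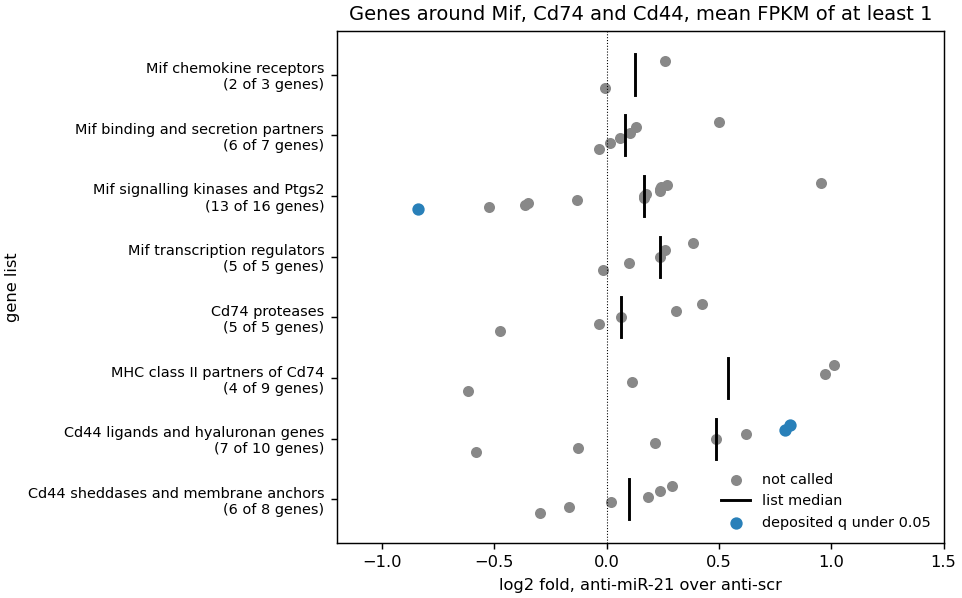
Log2 fold, anti-miR-21 value over anti-scr value, of the 48 listed genes whose mean reached 1 FPKM, by list; vertical bars are list medians and blue points have a deposited q under 0.05. The called genes are Map2k2 (-0.84) among the signalling genes and Spp1 (0.79) and Vcan (0.81) among the Cd44 ligands.

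Cd74 and the MHC class II genes it serves did not share 1 direction. RT1-Ba and RT1-Bb, the alpha and beta chain genes of the rat B class II molecule, had 14.1 and 14.6 FPKM with anti-miR-21, against 7.02 and 7.44 FPKM with anti-scr. Their log2 folds were 1.01 and 0.97, and each had p = 0.00055 and q = 0.0580 in the authors' deposited table, just above the threshold. RT1-Da, of the D molecule, had 59.2 FPKM with anti-miR-21 and 54.7 FPKM with anti-scr (0.11), while its partner RT1-Db1 had 10.6 FPKM with anti-miR-21 and 16.3 with anti-scr (-0.62; q = 0.398, from the authors' deposited table). Of 9 class II genes analysed, 4 were tested and none passed by the authors' deposited table; RT1-DMa and RT1-DMb were listed at 0, and Ciita, the master activator of the class, had 0.169 FPKM with anti-miR-21 and 0.168 with anti-scr. These genes vary between rat strains and have close copies, so their single values are uncertain.

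The proteases that trim the invariant chain included no call among 5 tested in the authors' deposited table, with a median of 0.06. Ctsl, listed as Ctsl1, had 506 FPKM with anti-miR-21 and 484 with anti-scr (0.06), and Ctss, the protease of antigen presenting cells, 87.5 FPKM with anti-miR-21 and 65.2 with anti-scr (0.42; p = 0.0372 and q = 0.498, from the authors' deposited table). Lgmn, the legumain gene, had 90.7 FPKM with anti-miR-21 and 92.9 with anti-scr (-0.03).

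Genes of Cd44 ligands and of hyaluronan had 2 rises and 0 falls among 8 tested in the authors' deposited table, with a median of 0.49 over 7 genes; over all tested loci 0.186% were called higher and 0.629% lower. The list was drawn up with earlier results of these data known, so its count is no independent evidence. Spp1, which encodes osteopontin, rose to 39.2 FPKM with anti-miR-21, against 22.6 FPKM with anti-scr (log2 fold 0.79; the authors' deposited table gives q = 0.0131). Vcan, the gene of the hyaluronan-binding proteoglycan versican, rose to 20.1 FPKM with anti-miR-21, against 11.4 FPKM with anti-scr (0.81; q = 0.0420, from the authors' deposited table). Fn1, the fibronectin gene, had 18.4 FPKM with anti-miR-21 and 11.9 with anti-scr (0.62, q = 0.0897), and Lyve1, another hyaluronan receptor gene, 29.1 FPKM with anti-miR-21 and 20.8 with anti-scr (0.49, q = 0.344); neither q passed in the authors' deposited table. Hyal2, which encodes a hyaluronidase, went the other way in value, at 11.2 FPKM with anti-miR-21 and 16.7 FPKM with anti-scr (-0.58; q = 0.287, from the authors' deposited table). The hyaluronan synthase genes were scarce: Has1 had 1.16 FPKM with anti-miR-21 and 0.522 with anti-scr (p = 0.0401, from the authors' deposited table), and Has2 and Has3 lay under 1 FPKM in either group.

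**Figure D5:**
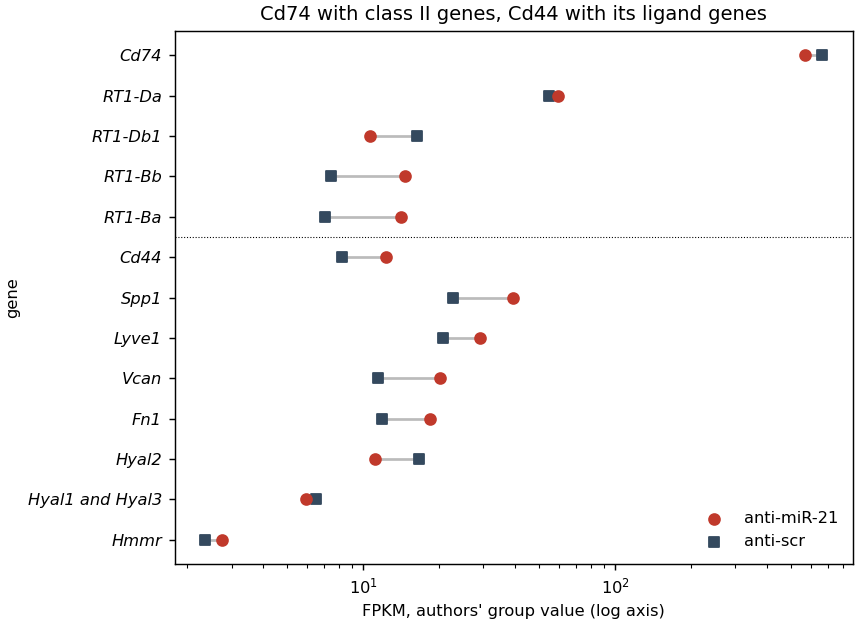
FPKM on a log axis, 1 authors' value per group, for Cd74 with 4 MHC class II genes and for Cd44 with 7 genes of its ligands and of hyaluronan, anti-miR-21 as circles and anti-scr as squares. RT1-Ba and RT1-Bb stand higher with anti-miR-21 (14.1 and 14.6 FPKM) than with anti-scr (7.02 and 7.44 FPKM). RT1-Da stands slightly higher too, while RT1-Db1 and Cd74 stand lower. Spp1, Vcan, Fn1, Lyve1, Hmmr and Cd44 stand higher with anti-miR-21, and Hyal2 and the locus of Hyal1 and Hyal3 stand lower.

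The sheddases and membrane anchors of CD44 included no call among 6 tested in the authors' deposited table, with a median of 0.10. The most abundant were the anchor genes Msn (51.7 FPKM with anti-miR-21 and 43.8 with anti-scr, 0.24) and Nf2 (36.8 FPKM with anti-miR-21 and 41.3 with anti-scr, -0.17).

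Cell type markers are given by list. Cd74 and Cd44 are known from immune and stromal cells, and Mif and Ddt are made by many cell types. Of 12 macrophage markers whose mean reached 1 FPKM, 10 had the higher value with anti-miR-21 (median 0.22), and the list summed to 458 FPKM with anti-miR-21 and 355 FPKM with anti-scr. Lyz2, the lysozyme gene, made up 251 FPKM of that with anti-miR-21 and 165 FPKM with anti-scr, and the other markers summed to 208 FPKM with anti-miR-21 and 189 FPKM with anti-scr. Of 5 fibroblast markers at that level, 5 were higher (median 0.24), summing over the list to 1663 FPKM with anti-miR-21 and 1363 with anti-scr. Col1a2, also on that list, was given at 0 FPKM with anti-miR-21 and 0.0123 FPKM with anti-scr, so it added almost nothing to the sums. Of 7 heart muscle markers, 6 were lower (median -0.38), summing to 66282 FPKM with anti-miR-21 and 86230 with anti-scr, and of 5 endothelial markers 5 were lower (median -0.09), summing to 226 FPKM with anti-miR-21 and 247 with anti-scr. By the authors' deposited table no gene of these 4 lists passed at a q under 0.05. Dendritic cell markers had a median of -0.03 over 3 genes (list sums 70.8 FPKM with anti-miR-21 and 67.0 with anti-scr, most of it at a locus that Xcr1 shares with Fyco1), and T and NK cell markers 0.07 over 7 genes (35.5 FPKM with anti-miR-21 and 31.2 with anti-scr). The 4 B cell markers analysed, of 6 listed and Ms4a1 among them, each lay under 1 FPKM in either group. They summed to 0.701 FPKM with anti-miR-21 and 0.488 with anti-scr. Which cells gave the high level of Cd74 was not tested. The part of cell makeup in the members' folds was not tested, and in bulk tissue fewer cells of a type and less RNA per cell cannot be told apart.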

How the data were processed

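RNA of the left ventricle was sequenced from 2 anti-miR-21 and 2 anti-scr libraries, each a pool of 2 to 3 rats; per the labels' protocols, a stranded kit for total RNA and paired reads were used. The submitters' processing notes name rn5 as the build and, as tools, Cuffdiff, Cufflinks 2.0.10, TopHat2 2.0.10 and cutadapt; annotation and options: not given in the sources used here. The authors deposited FPKM values, 1 per locus and group, with a p-value and a q-value, and separately a count of reads with the percent of reads mapped per library. How far the deposited p-values carry the spread between pools depends on options that are not stated. Because values per library were not analysed here, no model was fitted and no interval per library could be computed. In 97 rows, each with several genes, cells had moved out of their columns and were realigned (log2 ratio matched within 0.002). Folds were computed from the 2 FPKM values with Python 3.11.15 and pandas 2.3.3. Loci under 1 mean FPKM were left out of medians. The q-values were recomputed by the Benjamini-Hochberg method, checked on simulated p-values. A gene with several loci was taken at the most abundant one. The members and lists were chosen with earlier results of these data known. In each list the genes named were up to 3 called ones, or else the 2 most abundant, and those with p under 0.05; Map2k1, Prkaa2, Creb1, Cops5, RT1-DMa, RT1-DMb, Ciita, Has2, Has3, Cxcr2, Pdhx, Apip and single marker genes, like the split by number of neighbours, were added after their values were seen. Some genes are not reported here.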

Additional observations from a re-analysis of the deposited data

How the results depend on the processing

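Mif kept a log2 fold of -1.37 with log2 of FPKM + 1, -1.51 when recentred on the median of named loci, and -1.50 under the other settings, with a q of 0.0262 when recomputed over loci whose mean reached 1 FPKM. At a deposited q under 0.01 it (-1.50) was no longer called, and neither was any locus: 0 of the 81 lower and 0 of the 24 higher ones, and 0 of the listed genes lower or higher, in the authors' deposited Cuffdiff table, where 787 and 410 loci had an unadjusted p under 0.05. The lowest p among the genes named here was 5e-05, for Spp1 and Fitm1, in the authors' deposited Cuffdiff table. Its q there was 0.0131, so even these genes could not pass 0.01. At a q under 0.1 the counts were 125 lower and 44 higher, and 5 listed genes were higher. Ddt, Cd74 and Cd44 kept their direction and stayed uncalled under each of the 7 settings tried, but most of these could not have changed that. Each gene had 1 locus, so summing its loci changed nothing. Settings that changed the fold kept the deposited q, and those that changed the q kept the fold. Among 6271 loci within 4-fold of the level of Mif, 2 had a lower fold. No paired analysis was possible because the deposited values are 1 per group, and for the same reason no library could be left out. Replicate error could not be measured, and the Mif value rests on a locus with several transcript models and named copies elsewhere in the genome.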
